A study of Rattus norvegicus with 12 samples.

Results

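The genes described here make the enzymes, chaperones and crosslinkers that turn a newly made collagen chain into a stable fibre, and they were chosen by name as 10 genes, Lox, Loxl1, Plod1, Plod2, P4ha1, P4ha2, Serpinh1, Fkbp10, Crtap and Pcolce. All 10 were found, through 13 probe sets of 31042 that carry 1 such symbol alone, and they are 10 of the 14217 genes the arrays named. They were measured on 12 Affymetrix arrays of long bone RNA from female Sprague-Dawley rats, in 4 groups of 3 arrays each. STBB OVX rats ate a diet with 10% freeze-dried blueberry (BB) powder from postnatal day (PND) 20 to PND 34 and the casein control diet after that, LTBB OVX rats ate the BB diet from PND 20 to the end, and OVX rats ate the casein control diet throughout. All 3 of these groups were ovariectomized on PND 60, which removes the main source of estrogen, while sham rats ate the casein diet and had the operation without removal of the ovaries. Rats were killed on PND 81, 3 weeks after surgery, and each array held a pool of RNA from 2 to 3 rats, so the spread between arrays is a spread between pools. The labels call the tissue femur and the methods call it right tibia, so it is called long bone here.

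Collagen chains are modified inside the endoplasmic reticulum (ER) before they fold. Prolyl 4-hydroxylases add hydroxyl groups that hold the triple helix together at body temperature, lysyl hydroxylases mark the lysines from which crosslinks and sugar side chains are built, and chaperones such as Hsp47 keep the helix folded on its way out of the cell. Outside the cell the end pieces of procollagen are cut off, and lysyl oxidases then oxidize lysine and hydroxylysine so that neighbouring molecules crosslink. In humans, inherited loss of several of these proteins gives brittle bones, which is why the pathway is followed in bone.

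Values are log2 signals in which every probe set was set to a median of 0 over the 12 arrays. The level of a gene was thereby removed, and only differences between arrays can be read. Because 9 of the 12 arrays came from ovariectomized rats, values of those arrays lie near 0 for most genes, and a gene that is lower in sham rats shows a negative sham value. The sham arrays stood apart from the other 9 arrays across the whole table. With limma and a Benjamini-Hochberg adjusted p under 0.05 over 14217 genes, 30.3% of genes were higher and 28.6% were lower in OVX than in sham long bone. Arrays carry no read depth, and 3 pools per group limit the precision. The residual SD over all probe sets was 0.136 in STBB OVX, 0.149 in LTBB OVX, 0.145 in OVX and 0.198 in sham arrays.

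The 250 bases before the start of Plod2, P4ha2 and P4ha1 are shown next because they hold more than 1 core of the hypoxia-response element, and collagen hydroxylase genes are classical targets of the hypoxia-inducible factors. Crtap is shown beside them as the one gene of the set that did not pass the test after ovariectomy. The windows come from RefSeq on the rat assembly GRCr8, run 5′ to 3′ on the gene's strand, and carry in capitals every ACGTG or GCGTG on either strand. Plod2 lies at chr8:101964068-101964317 on the plus strand, P4ha2 at chr10:38743644-38743893 on the plus strand, P4ha1 at chr20:27844796-27845045 on the plus strand and Crtap at chr8:122945844-122946093 on the minus strand. The P4ha1 window lies inside the annotated span of that gene, before one of its downstream starts.
Plod2: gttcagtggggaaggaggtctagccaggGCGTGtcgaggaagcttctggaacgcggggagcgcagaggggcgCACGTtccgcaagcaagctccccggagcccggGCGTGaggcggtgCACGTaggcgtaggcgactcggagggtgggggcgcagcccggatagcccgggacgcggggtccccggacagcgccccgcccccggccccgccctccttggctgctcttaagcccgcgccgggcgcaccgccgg
P4ha2: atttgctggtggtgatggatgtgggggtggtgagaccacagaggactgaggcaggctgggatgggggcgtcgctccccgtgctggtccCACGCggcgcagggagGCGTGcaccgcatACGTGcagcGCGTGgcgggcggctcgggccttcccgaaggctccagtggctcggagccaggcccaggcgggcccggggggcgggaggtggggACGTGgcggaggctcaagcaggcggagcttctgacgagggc
P4ha1: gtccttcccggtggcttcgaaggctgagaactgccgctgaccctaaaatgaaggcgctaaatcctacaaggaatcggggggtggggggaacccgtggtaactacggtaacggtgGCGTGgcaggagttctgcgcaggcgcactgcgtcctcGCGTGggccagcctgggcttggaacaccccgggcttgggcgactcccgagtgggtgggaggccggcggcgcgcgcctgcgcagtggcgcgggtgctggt
Crtap: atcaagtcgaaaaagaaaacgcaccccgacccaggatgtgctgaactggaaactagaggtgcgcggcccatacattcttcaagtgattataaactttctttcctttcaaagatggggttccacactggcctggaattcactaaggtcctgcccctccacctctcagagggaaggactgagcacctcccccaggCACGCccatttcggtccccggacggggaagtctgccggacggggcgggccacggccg

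The Plod2 window held 4 such cores, the P4ha2 window 5, the P4ha1 window 2 and the Crtap window 1. The windows of Plod1 and Pcolce, which both rose after ovariectomy, also held 1 each. A link between the number of cores and the change after ovariectomy was not tested. Windows were given for 8 of the 10 genes, not for Lox and Fkbp10. The core was present in 6 of these 8 and in 36.7% of 33469 windows of the same length over all genes, while Loxl1 and Serpinh1 had none. The Serpinh1 window lies mostly inside the annotated span of that gene. The windows of these genes were rich in G and C, at 74.8% in Plod2, 72.4% in P4ha2, 67.6% in P4ha1 and 57.2% in Crtap against a median of 51.2% over all windows. The full palindromic estrogen response element was in 0 of 8 windows and in 0.0239% of all windows. The Runx core TGTGGT, searched on both strands, was in the P4ha2 window alone among the 8 and in 14.5% of all windows. It did not overlap a hypoxia core there. A match of letters is a description of the window and not a measured binding site.

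In OVX rats compared with sham rats, which asks what 3 weeks of estrogen loss did on the control diet, 9 of the 10 genes rose and 0 fell, beside 30.3% of all genes that rose and 28.6% that fell. Crtap did not pass the test. The median change of the 10 genes was 1.84 on the log2 scale, against 0.0047 over all 14217 genes. Every OVX pool lay above every sham pool for the same 9 genes, which was so for 31.5% of all genes. The rises formed a larger group, of Fkbp10, Pcolce, P4ha1, Lox, Plod2 and Serpinh1, with fold changes between 3.32 and 7.77, and a smaller group, of Plod1, P4ha2 and Loxl1, with fold changes between 1.70 and 1.91. This grouping rests on the processing: with 1 probe set per gene Serpinh1 changed by 0.78 and P4ha2 by 1.58 on the log2 scale, so that these 2 genes exchanged places, and after a second quantile normalization the changes of the 9 genes ran from 0.33 for Loxl1 to 1.17 for Fkbp10. A rise in such a tissue can be more RNA in each cell or a larger share of the cells that make it in the tissue sampled. These cannot be told apart in pooled bone.

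**Figure D1:**
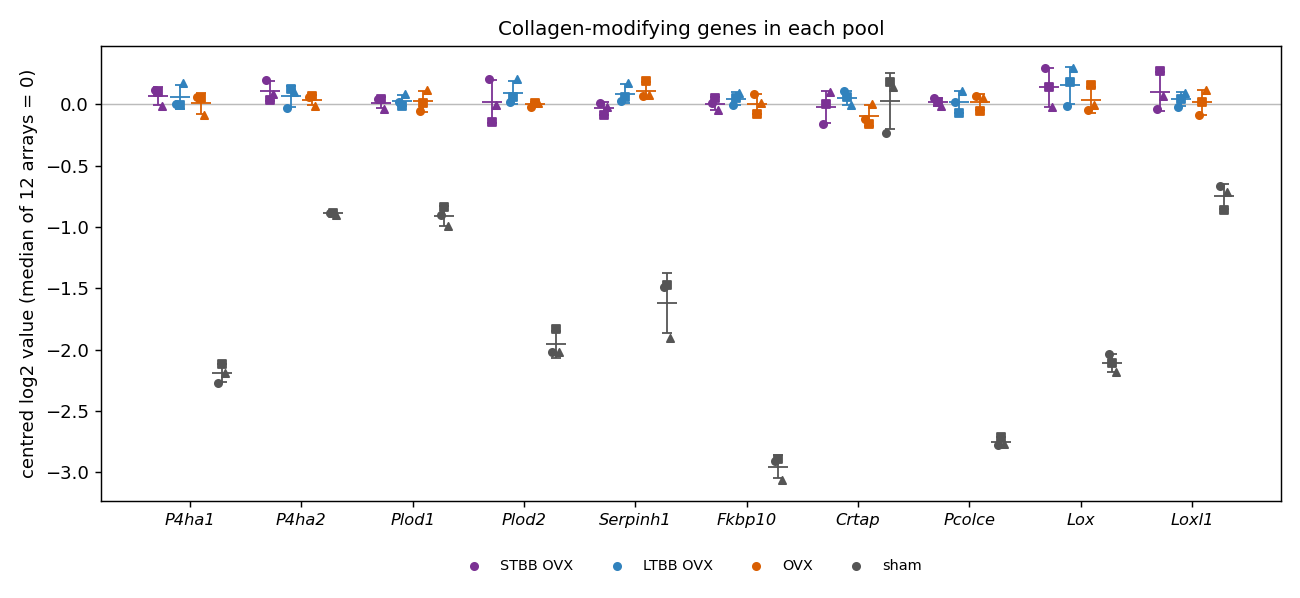
Centred log2 signal (vertical axis) of the 10 genes in each pool of STBB OVX, LTBB OVX, OVX and sham long bone, where circles, squares and triangles are pools 1, 2 and 3 and bars are the mean ± SD of 3 pools. The sham pools sit far below the other groups for Fkbp10, Pcolce, P4ha1, Lox, Plod2 and Serpinh1, less far below for Plod1, P4ha2 and Loxl1, and among the other pools for Crtap.

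Genes that mark other cell types moved with this comparison, in which 30.3% of all genes rose and 28.6% fell. All 19 measured skeletal muscle genes fell (median -6.14, mean level per pool -2.66 to -1.22 in OVX and 3.23 to 4.18 in sham), 8 of 9 erythroid genes fell (median -2.74, -0.30 to 0.094 in OVX and 2.27 to 2.69 in sham) and all 7 neutrophil genes fell (median -2.71, -0.26 to 0.035 in OVX and 2.06 to 2.70 in sham). Of the bone and cartilage genes, 10 of 11 osteoblast and osteocyte genes rose (median 2.60, -0.054 to 0.088 in OVX and -2.27 to -2.08 in sham), as did 10 of 13 cartilage genes (median 5.09, -0.090 to 0.27 in OVX and -4.25 to -4.17 in sham) and all 6 osteoclast genes (median 2.98). Of the other cartilage genes Sox6 fell by 2.62 and 2 did not pass the test. Of 9 tendon and fibroblast genes 6 rose and 3 fell (median 0.97). The mean over the 10 collagen-processing genes ran from -0.0014 to 0.026 in OVX pools and from -1.66 to -1.55 in sham pools. The part of these markers in the rises described here was not tested, and centring leaves it unknown which defining markers were near background.

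The prolyl 4-hydroxylase alpha subunits carry the catalytic site and pair with protein disulfide isomerase, the product of P4hb. P4ha1, the widespread alpha subunit, had 0.060, 0.050 and -0.091 in the OVX pools, against -2.27, -2.12 and -2.19 in the sham pools. It rose by 2.20 on the log2 scale (SE 0.076, adjusted p = 1.2e-10), a 4.59-fold difference with no overlap. P4ha2, the isoform that is prominent in chondrocytes and osteoblasts of mice, had 0.055, 0.064 and -0.014 in the OVX pools, against -0.89, -0.89 and -0.90 in the sham pools. Its rise of 0.93 (SE 0.066, adjusted p = 6.8e-08) was a 1.90-fold difference. The partner gene P4hb rose by 1.09 (SE 0.075). P4ha3, the remaining alpha subunit, fell by 0.48 (SE 0.18, adjusted p = 0.0353), so the subunits of this enzyme did not all go the same way.

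The lysyl hydroxylases split in the same manner. Plod2, which modifies the lysines in the end regions (telopeptides) of collagen that give the crosslinks typical of bone, had -0.023, 0.011 and 0.0065 in the OVX pools, against -2.02, -1.83 and -2.02 in the sham pools. It rose by 1.95 (SE 0.091, adjusted p = 1.4e-09), a 3.88-fold difference. Plod1, which modifies lysines within the triple helix, had -0.058, 0.011 and 0.12 in the OVX pools, against -0.90, -0.84 and -0.996 in the sham pools. It rose by 0.93 (SE 0.069, adjusted p = 8.4e-08), or 1.91-fold. Plod3, whose protein also adds glucose to hydroxylysine, rose by 1.74 (SE 0.066). All pools of OVX bone stood above those of sham bone for both Plod1 and Plod2.

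Within an array the copies of a family could be set against each other, since a shift that acts on the whole array cancels. The difference Plod2 minus Plod1 averaged -0.025 ± 0.075 in OVX and -1.04 ± 0.066 in sham pools (SD, n = 3 each), a change of 1.02. P4ha2 minus P4ha1 averaged 0.029 ± 0.043 in OVX and 1.30 ± 0.077 in sham pools, a change of -1.27. Loxl1 minus Lox averaged -0.017 ± 0.13 in OVX and 1.36 ± 0.11 in sham pools, a change of -1.38. None of the 3 differences overlapped between groups, and each gave p = 0.10 in a two-sided exact permutation test (adjusted p = 0.10 over the 3 comparisons), the smallest that 3 pools against 3 allow. The share of other gene pairs that separate in this way was not counted, and 30.3% of all genes rose and 28.6% fell. Separation is therefore not shown to be particular to these families. On these probe sets Plod2, P4ha1 and Lox differed more between OVX and sham bone than their relatives Plod1, P4ha2 and Loxl1. Probe sets of 1 gene also differed, at 1.58 and 0.27 for P4ha2 and 2.68 and 0.78 for Serpinh1, though not for Lox (2.15 and 2.14). Whether the differences between relatives lie in the genes or in their probe sets was not tested. A second quantile normalization reduced the change in each pair by more than 1.5 times, to 0.32 for Plod2 minus Plod1, -0.41 for P4ha2 minus P4ha1 and -0.53 for Loxl1 minus Lox, and with 1 probe set per gene P4ha2 minus P4ha1 was -0.62.

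**Figure D2:**
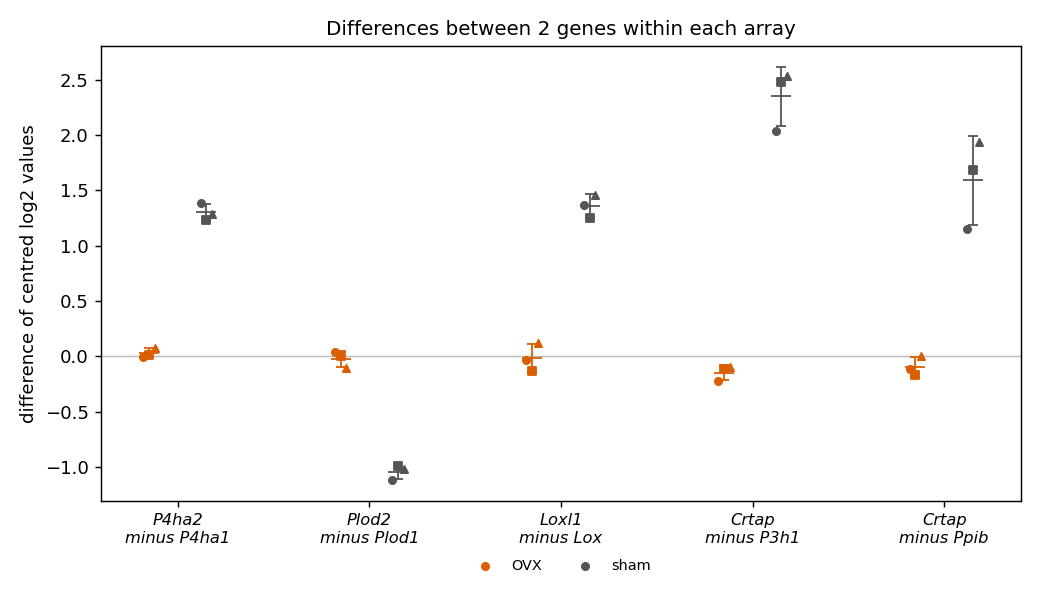
Differences between genes within each array (vertical axis, log2) in OVX and sham pools, with bars at the mean ± SD of 3 pools. The pairs are Plod2 minus Plod1, P4ha2 minus P4ha1, Loxl1 minus Lox, Crtap minus P3h1 and Crtap minus Ppib. OVX pools average -0.025, 0.029 and -0.017 for the first 3 pairs named here and sham pools -1.04, 1.30 and 1.36, without overlap.

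Fkbp10 showed the largest rise of the 10 genes. It makes FKBP65, a peptidyl-prolyl isomerase of the ER that works with Hsp47 and is needed for telopeptide lysyl hydroxylation in human bone collagen. The OVX pools held 0.080, -0.083 and 0.0080 and the sham pools -2.91, -2.89 and -3.06. The difference was 2.96 on the log2 scale (SE 0.070, adjusted p = 9.3e-12), or 7.77-fold, and it stood at place 62 of all genes by the size of the rise. Serpinh1, which encodes Hsp47, the chaperone that binds the folded triple helix, had 0.064, 0.19 and 0.079 in the OVX pools, against -1.49, -1.47 and -1.90 in the sham pools. It rose by 1.73 (SE 0.10, adjusted p = 1.2e-08), or 3.32-fold, and its sham pools were spread more widely (SD 0.24) than those of the other genes in the set.

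Crtap was the exception. Its protein forms a complex with prolyl 3-hydroxylase P3h1 and cyclophilin B (Ppib) that modifies one proline in type I collagen chains and also assists folding, and loss of any of the 3 gives recessive osteogenesis imperfecta in humans. The 3 STBB OVX pools had -0.16, -0.0018 and 0.099, the 3 LTBB OVX pools 0.10, 0.061 and -0.0097, the 3 OVX pools -0.12, -0.16 and 0.0018 and the 3 sham pools -0.23, 0.18 and 0.14. The OVX and sham pools overlapped, with a difference of -0.12 (SE 0.11, 95% confidence interval -0.35 to 0.11, adjusted p = 0.352). The interval reaches no further than 0.11 upward, below the lower limits of all 9 other genes. Sham pool 1 held the lowest Crtap value of all 12 arrays, and without it the difference was -0.25 and passed the test (adjusted p = 0.0256).

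The partners of Crtap were looked up after its values were seen and are given as a description. P3h1 rose by 2.37 (SE 0.066) and Ppib by 1.56 (SE 0.091). The difference Crtap minus P3h1 ran from -0.23 to -0.10 in OVX pools and from 2.04 to 2.53 in sham pools. For Crtap minus Ppib the OVX pools ran from -0.17 to -0.00092 and the sham pools from 1.15 to 1.94. The 3 subunit genes of 1 complex therefore differed in how their transcripts changed, by -2.50 against P3h1 and -1.69 against Ppib in mean log2 units, on a single probe set for Crtap.

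Pcolce, the secreted glycoprotein that speeds removal of the C-terminal propeptide by Bmp1, had 0.066, -0.055 and 0.049 in the OVX pools, against -2.77, -2.71 and -2.77 in the sham pools. It rose by 2.77 (SE 0.066, adjusted p = 9.3e-12), or 6.82-fold, and the sham pools differed from each other by little (SD 0.035). The protease gene Bmp1 rose by 2.63 (SE 0.085).

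Lox, the main lysyl oxidase of fibrillar collagen, had -0.050, 0.15 and -0.0050 in the OVX pools, against -2.04, -2.11 and -2.18 in the sham pools. It rose by 2.14 (SE 0.099, adjusted p = 1.3e-09), or 4.41-fold. Loxl1, which acts chiefly on elastic fibres in mice, had -0.089, 0.020 and 0.12 in the OVX pools, against -0.67, -0.86 and -0.72 in the sham pools. Its rise of 0.77 (SE 0.089, adjusted p = 7.1e-06), or 1.70-fold, was the smallest of the 9, and a second quantile normalization ended the call (0.33, adjusted p = 0.158). Of the other lysyl oxidase genes, Loxl2 rose by 0.55 (SE 0.078) and Loxl3 by 2.12 (SE 0.088).

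Of the 10 genes, 3 were read by 2 probe sets each, and these did not always give the same size of change. Both Lox probe sets rose by the same amount, 2.15 and 2.14. For Serpinh1, probe set 1371310_s_at rose by 2.68 (SE 0.075) and 1369009_at by 0.78 (SE 0.16, adjusted p = 0.00102), and the wide spread of its sham pools came from the second, at -0.38, -0.49 and -1.12. For P4ha2, probe set 1372610_at rose by 1.58 (adjusted p = 5.5e-09) and 1375332_at by 0.27 (SE 0.090, adjusted p = 0.0202), with p-values adjusted over all 31042 probe sets. All 6 probe sets rose, so the direction held, but the size given for Serpinh1 and P4ha2 is a mean of unlike readings.

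**Figure D3:**
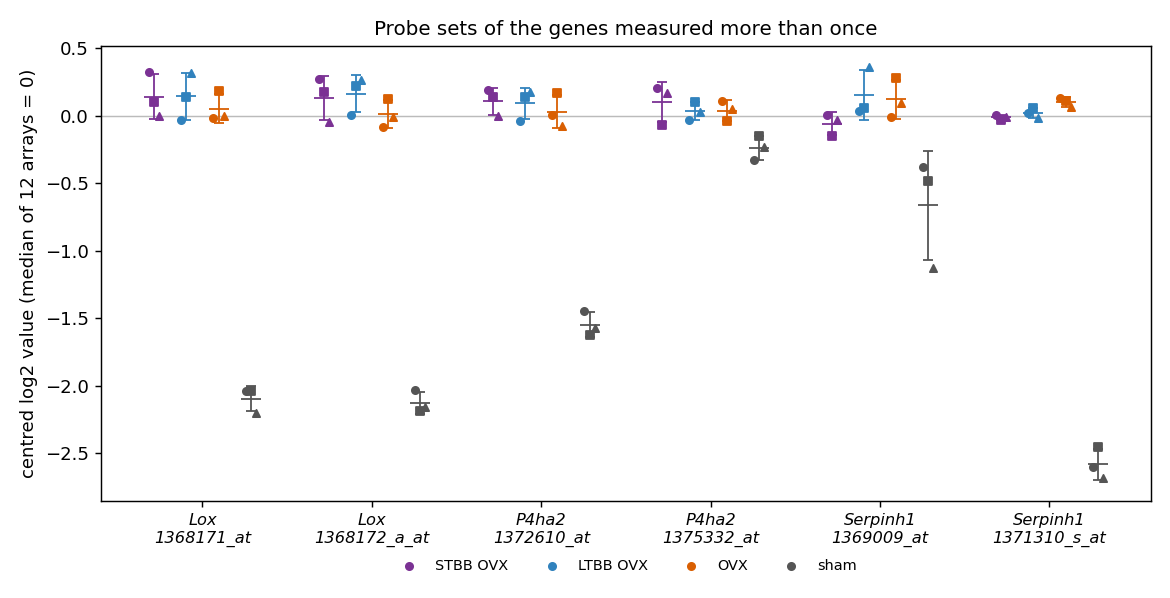
Centred log2 signal (vertical axis) of the 2 probe sets each of Lox, P4ha2 and Serpinh1 in every pool, with bars at the mean ± SD of 3 pools. OVX minus sham is 2.15 and 2.14 for the Lox pair, 1.58 and 0.27 for the P4ha2 pair, and 0.78 and 2.68 for the Serpinh1 pair.

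The substrate rose as well. Col1a1 and Col1a2, which encode the chains of type I collagen, rose by 1.24 (SE 0.068, adjusted p = 5.9e-09) and 0.81 (SE 0.068, adjusted p = 2.9e-07). All 11 measured fibrillar collagen chain genes rose (median 1.70), beside 30.3% of all genes. Relative to the mean of Col1a1 and Col1a2 in the same array, OVX pools stood above sham pools for Fkbp10 (1.93), Pcolce (1.75), P4ha1 (1.17), Lox (1.12), Plod2 (0.93) and Serpinh1 (0.71), and below them for Crtap (-1.15). Each of these 7 gave p = 0.10 in a two-sided exact permutation test (adjusted p = 0.143 over 10 comparisons), the smallest possible with 3 pools against 3. Loxl1 (-0.26, exact p = 0.20), Plod1 (-0.090, exact p = 0.30) and P4ha2 (-0.099, exact p = 0.30) overlapped between the groups. Because the base itself rose, a gene that did not change lies below it. Crtap alone differed by -0.12, so most of its distance from type I collagen is the rise of that base. The share of all genes whose pools stood apart relative to this base was not counted. By single probe sets, Serpinh1 was 1.66 above type I collagen with 1371310_s_at and overlapped with 1369009_at (-0.24), and P4ha2 was 0.55 above with 1372610_at and below (-0.75) with 1375332_at. After a second quantile normalization the same 6 genes stood above and Crtap below, but at less distance, with Fkbp10 at 0.77, Pcolce at 0.67, Lox at 0.45, Serpinh1 at 0.43, P4ha1 at 0.41, Plod2 at 0.32 and Crtap at -0.59. Centring removed the signal levels, so whether the Col1a1 and Col1a2 probe sets were near saturation was not tested, and these relative values hold only as far as that base was measured in full.

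Other genes that process collagen mostly rose with these 10. Of 28 listed genes 20 were measured, of which 18 rose and 2 fell, with a median of 1.90 beside 30.3% of all genes that rose. Fkbp7, a further ER isomerase, rose by 2.79, Creb3l1, the transcription factor that drives secretory genes in osteoblasts of mice, by 2.28, and P3h4, a partner in lysyl hydroxylation, by 2.27. Besides P4ha3, Tmem38b fell, by 1.18 (SE 0.18, adjusted p = 9.4e-05). Its protein is an ER potassium channel whose loss gives brittle bones in humans.

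General ER folding genes rose less far. Of 17 measured 13 rose, 2 fell and 2 did not pass the test, with a median of 0.55, beside 30.3% of all genes that rose. Ppic, a cyclophilin, rose by 3.26 and Pdia4, a disulfide isomerase, by 1.49, whereas Sdf2l1 fell by 0.36 and Ero1a, an ER oxidase, fell by 0.29. Hspa5, the general ER chaperone BiP, rose by 0.87 (SE 0.11).

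Listed targets of the hypoxia-inducible factors other than the hydroxylases moved both ways. Of 19 measured 5 rose, 9 fell and 5 did not pass the test, with a median of -0.16. Over all genes 30.3% rose and 28.6% fell. Ddit4, an inhibitor of growth signalling, rose by 0.88 and Slc2a1, a glucose transporter, by 0.87. Egln3, an oxygen sensor, fell by 3.57, Bnip3, a mitophagy receptor, by 2.07 and Ldha, lactate dehydrogenase, by 1.25. The list holds genes of glycolysis that skeletal muscle also expresses, and all 19 muscle genes fell. The part of muscle in the falls of this list was not tested.

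**Figure D4:**
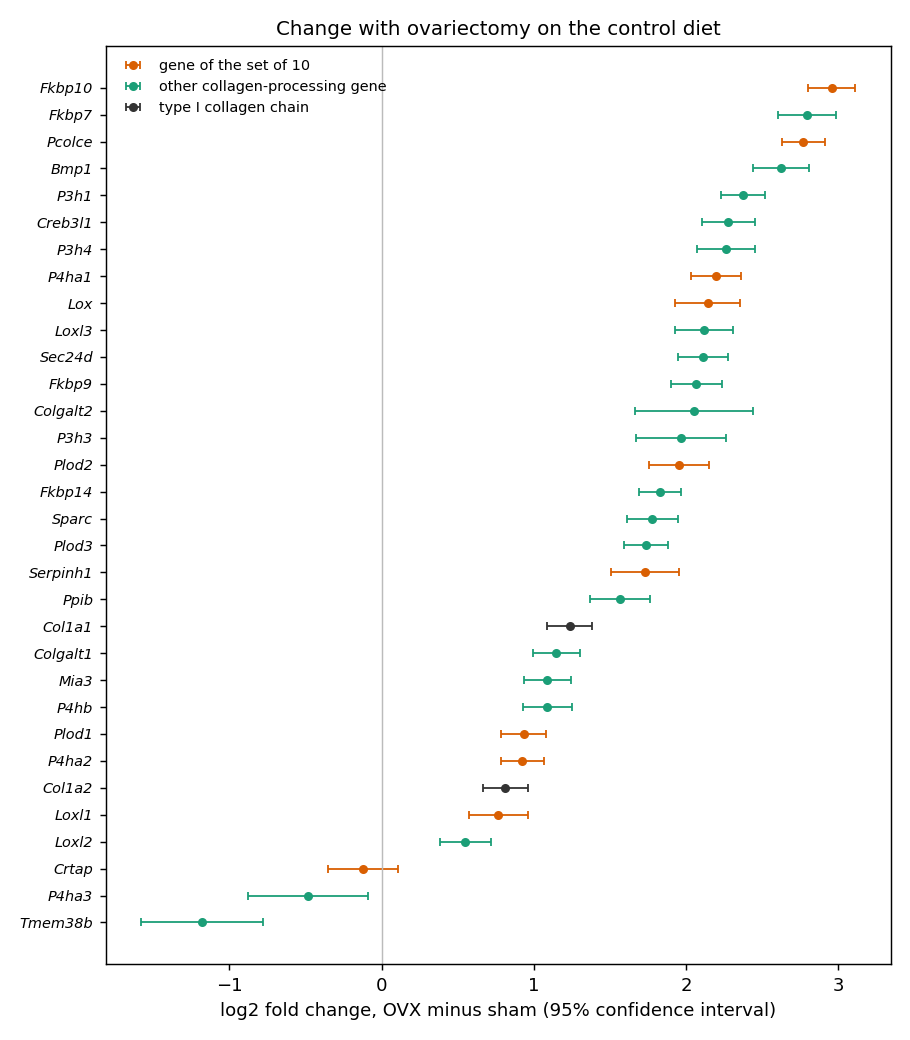
Log2 fold change, OVX minus sham, with its 95% confidence interval (horizontal axis), for the 10 genes (orange), other collagen-processing genes (green) and both type I collagen chains (black). The 10 genes span -0.12 for Crtap to 2.96 for Fkbp10, and P4ha3 and Tmem38b lie below 0.

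The BB diets were set against the control diet in ovariectomized rats to ask whether BB changed these genes. In LTBB OVX against OVX rats limma called 0 of the 10 genes, as it called 0% of all 14217 genes, and 0 of the 10 had an unadjusted p under 0.05, against 329 genes (2.31%) in all. The differences ran from -0.024 for Serpinh1 to 0.14 for Crtap, with a median of 0.036, and the 95% confidence intervals of all 10 lay between -0.25 and 0.38. Lox differed by 0.12 (interval -0.094 to 0.34), on pools of -0.011, 0.18 and 0.29 in LTBB OVX and -0.050, 0.15 and -0.0050 in OVX bone. Plod2 differed by 0.097 (interval -0.10 to 0.29). Its LTBB OVX pools, at 0.021, 0.063 and 0.20, all lay above the OVX pools, at -0.023, 0.011 and 0.0065, as was so for 3.93% of all genes and for 1 of these 10. Fkbp10 differed by 0.044 (interval -0.11 to 0.20), whereas the difference between OVX and sham bone for that gene was 2.96.

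In STBB OVX against OVX rats limma again called 0 of the 10 genes and 0% of all genes, with 0 of the 10 at an unadjusted p under 0.05, against 411 genes (2.89%) in all. The differences ran from -0.15 for Serpinh1 to 0.11 for Lox, with a median of 0.041, and the 95% intervals lay between -0.37 and 0.32. Serpinh1 had 0.0081, -0.091 and -0.019 in the STBB OVX pools, against 0.064, 0.19 and 0.079 in the OVX pools, without overlap (difference -0.15, interval -0.37 to 0.078, adjusted p = 1.0). It was the only gene of the 10 whose STBB OVX pools all lay below the OVX pools, which was so for 5.13% of all genes. Its LTBB OVX pools, at 0.030, 0.057 and 0.17, also stood above all STBB OVX pools, as was so for 5.63% of all genes. Both Serpinh1 probe sets averaged lower in STBB OVX than in OVX bone, with differences of -0.11 for 1371310_s_at and -0.18 for 1369009_at. The Serpinh1 interval rests on a spread shared by all 4 groups, with SD 0.24 in sham, 0.070 in OVX and 0.051 in STBB OVX pools. Without sham pool 3, which is in neither group compared, 1 of the 10 genes had an unadjusted p under 0.05. After adjustment 0 were called there. Lox had 0.30, 0.14 and -0.022 in the STBB OVX pools, which overlapped the OVX pools.

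Values of the skeletal muscle genes differed widely between pools of ovariectomized rats. The mean of the muscle list ran from -0.079 to 0.51 in STBB OVX, from -2.71 to 0.39 in LTBB OVX and from -2.66 to -1.22 in OVX pools, and 17 of its 19 genes were higher in STBB OVX than in OVX bone at an unadjusted p under 0.05, with a median of 2.16, though 0 passed after adjustment. Its part in the small diet differences of the 10 genes was not tested.

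**Figure D5:**
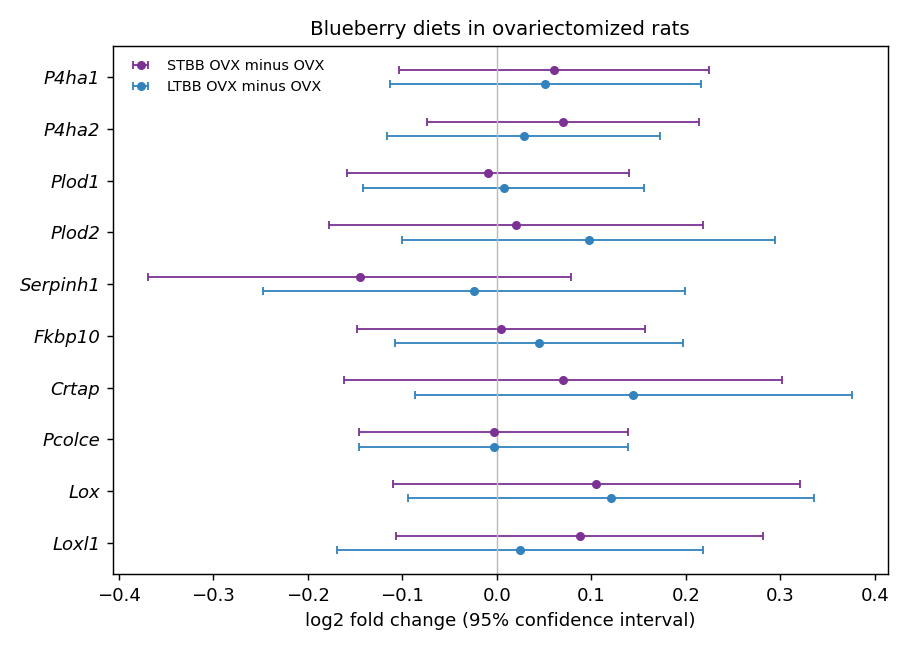
Log2 fold change with its 95% confidence interval (horizontal axis) for each of the 10 genes, STBB OVX minus OVX and LTBB OVX minus OVX. All intervals include 0, and they lie between -0.37 and 0.38.

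Between the BB diets, STBB OVX minus LTBB OVX ran from -0.12 for Serpinh1 to 0.063 for Loxl1 with a median of -0.016, and limma called 0 of the 10 genes and 0% of all genes. None of the 10 had an unadjusted p under 0.05, beside 484 genes (3.4%) in all. Over the 9 arrays of ovariectomized rats the widest range of values was 0.36 for Loxl1, followed by 0.35 for Lox and for Plod2, and the narrowest was 0.17 for Plod1 and Fkbp10, against a median range of 0.30 over all genes.

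Each BB group was also set against sham rats, in comparisons that share the sham arrays with the one above. In STBB OVX bone 9 of the 10 genes rose and 0 fell, where 29.3% of all genes rose and 29% fell, and in LTBB OVX bone 9 rose and 0 fell, where 29.2% rose and 29.1% fell. Fkbp10 was higher than in sham bone by 2.96 in STBB OVX, 3.0 in LTBB OVX and 2.96 in OVX bone. Lox was higher by 2.25 in STBB OVX, 2.26 in LTBB OVX and 2.14 in OVX bone. Serpinh1 was higher by 1.59 in STBB OVX, 1.71 in LTBB OVX and 1.73 in OVX bone. The gene that did not pass was Crtap each time, at -0.052 in STBB OVX (adjusted p = 0.705) and 0.022 in LTBB OVX (adjusted p = 0.874).

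The genes whose values ran most like Fkbp10 and Crtap over the 9 arrays of ovariectomized rats are given as a description, since they are the highest correlations among 14216 other genes and the arrays share the centring. For Fkbp10 they were Tmem214 (r = 0.95), Klhdc7a (r = 0.94) and Slc13a5 (r = 0.94). For Crtap they were LOC102556108 (r = 0.94), Tube1 (r = 0.94) and Rpp25l (r = 0.92). No other collagen-processing gene was among the 5 most alike to either gene.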

How the data were processed

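Long bone RNA was hybridized to Affymetrix rat arrays in 4 groups of 3 pools. The authors deposited log2 values made by robust multiarray analysis (RMA) and, per the methods, normalized in GeneSpring, first by array and then by probe set, after low values were raised to a floor. GCOS and RMA appear in the submitters' processing notes (version: not given in the sources used here). Each probe set has a median of 0, so levels are lost. Whether the floor shrank differences of dim probe sets was not tested. Array medians ran from -0.0127 to 0.0089.

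Of 31099 probe sets 57 controls were left out. Platform annotation gave 1 symbol to 20826, several to 436 and none to 9780, and 20758 were updated by gene ID through RefSeq (GRCr8, names and promoter windows only). Probe sets of a gene were averaged, giving 14217 genes. limma 3.58.1 in R 4.3.3 was fitted to 4 group means on all 12 arrays, with 6 contrasts and Benjamini-Hochberg adjustment over all genes at 0.05. Within-array differences were compared by exact permutation tests. All 10 genes are named, with the type I collagen genes, genes of the same family or complex, and those described as chosen later. Of the lists, up to 3 of the largest other rises and falls are named. Hspa5 and Ldha were named outside this rule and were not among the largest changes of their lists. The 10 genes, the lists and the tests were chosen with earlier results of these data known. The study pooled rats of a group at random, and p-values measure the spread between pools of 2 to 3 rats. Pool numbers carry no stated link between groups. Deviations of same-numbered pools correlated above 0.1 in all 3 pairs of LTBB OVX with sham (0.11 to 0.23) and of STBB OVX with sham (0.10 to 0.17), and in 0 of 3 pairs of each other comparison. Alternatives tried were a second quantile normalization, a shift by 12 housekeeping genes or by the array median, 1 probe set per gene, array weights, a replicate block, 2 groups alone and leaving out each pool. The limma step was tested on simulated data.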

Additional observations from a re-analysis of the deposited data

How the results depend on the processing

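No gene of the 10 changed direction between OVX and sham bone under any alternative run. A second quantile normalization, which by construction squeezes the wider sham arrays, reduced the changes, to 1.17 for Fkbp10, 0.86 for Lox and 0.40 for Plod1. It ended the Loxl1 call in OVX (0.33, adjusted p = 0.158) and in LTBB OVX (0.37, adjusted p = 0.119) against sham, and gave Plod2 minus Plod1 0.32, P4ha2 minus P4ha1 -0.41 and Loxl1 minus Lox -0.53. It called 3010 genes in OVX against sham, compared with 8367 otherwise. With 1 probe set per gene P4ha2 minus P4ha1 was -0.62. A shift by housekeeping genes moved the median of all genes to -0.11 and left the calls of the 10 genes as they were. Of the 12 housekeeping genes, however, 4 rose and 4 fell between OVX and sham, and 1 of them was Ppib, the partner of Crtap. They were therefore not a steady base. With 1 pool left out the genes called lower ranged from 0 to 1. The 1 was Crtap without sham pool 1 (-0.25, adjusted p = 0.0256). Leaving out 1 pool gave ranges of 0.98 to 1.06 for Plod2 minus Plod1, -1.31 to -1.23 for P4ha2 minus P4ha1 and -1.45 to -1.32 for Loxl1 minus Lox. Same-numbered pools deviated together in both comparisons of a BB group with sham (6 of 6 pairs above 0.1) and not in the other 4 (correlations -0.38 to 0.086). With a replicate block 9 of the 10 genes were called in each comparison with sham and 0 among the OVX groups, as without the block, which changed no call of these genes. Between BB diets and OVX 0 of the 10 were called under every alternative run, and their signs changed in 21 alternative values for LTBB OVX and 13 for STBB OVX. The 0 over all genes was less steady. For STBB OVX against OVX, 40 genes were called with the 2 groups alone and 8 without LTBB OVX pool 3. A second quantile normalization called 1, as did leaving out STBB OVX pool 1. For STBB OVX against LTBB OVX these counts were 0, 8, 10 and 1.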

Other observations

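Col1a1 varied less over the 9 arrays of ovariectomized rats than any of the other genes measured, with a range of 0.024 on the log2 scale against a median range of 0.30 over all 14217 genes. Col1a2 had a range of 0.050 and P4hb, the shared partner of the prolyl 4-hydroxylases, a range of 0.083, below which lay 0.0211% and 0.471% of genes. The 10 genes described above had ranges of 0.17 to 0.36 on the same arrays. Saturation gives a narrow range too, and was not tested, since centring removed the signal levels. The mean of Col1a1 and Col1a2 served above as the base for the comparison with type I collagen.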
